A study of Mus musculus with 8 samples.

Results

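The genes described here build and run the DNA replication fork. They are 50 genes whose products recognise and license origins, unwind and copy DNA, hold and load the sliding clamp, assemble chromatin behind the fork or protect stalled forks. They were chosen by symbol from the 34432 rows of the expression table, and all 50 were found there. Polyadenylated RNA had been sequenced as read pairs of 150 bases from mouse bone marrow-derived macrophages, grown from marrow and collected untreated at day 7. The 4 controls carried the Vav-driven Cre recombinase alone (VAV-cre). The 4 double knockouts (CDK8CDK19KO) carried Vav-iCre with a floxed Cdk8 (flox/flox) on a Cdk19null background. Both groups thus carry a Cre driven by Vav, a promoter of the blood lineages. The sources used here give neither the age and number of the animals nor whether replicates were separate animals or cultures. P-values then measure the spread between these libraries, which may be technical. Cdk8 and Cdk19 are alternative kinases of the Mediator complex, and the comparison asks which transcripts differ when both are targeted.

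In G1 the origin recognition complex marks origins, and Cdc6 and Cdt1 load the MCM2-7 helicase onto them in an inactive form. The kinase Cdc7 with its partner Dbf4, together with cyclin-dependent kinases, then recruits Cdc45 and the GINS complex, which turns MCM2-7 into a moving helicase. Polymerase alpha with primase starts each strand, polymerases epsilon and delta extend it, and the ring-shaped clamp Pcna keeps them on the template. Many of these genes are transcribed under E2F control as cells enter the cycle. Bone marrow precursors divide while they differentiate under macrophage colony-stimulating factor, and division slows as macrophages mature.

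Depth was 17856715 to 21353207 reads per library (exact two-sided permutation p = 0.171 between groups). For Cdk19 the normalized read counts of controls 1 to 4 were 1299, 1295, 1530 and 1682, and those of double knockouts 1 to 4 were 396, 392, 361 and 342. Cdk8 stood at 466, 449, 408 and 432 against 429, 309, 357 and 294, with overlap between groups. Its log2 fold change was -0.35 (limma adjusted p = 0.0374), and that call was lost in 10 of 19 alternative settings. Gene totals include exons outside a floxed segment, so they do not check the Cdk8 deletion. Double knockouts 1 and 2 were close to each other, as were 3 and 4. Their chi-square per gene was 8.01 and 9.08, against 19.2 to 26.4 across these pairs. Among controls it ran from 9.29 (2 and 3) to 38.2 (1 and 4). With each pair averaged, 46 members were called lower, Timeless among them and Rfc2 not. Of 10 macrophage markers 4 were higher and 6 lower, with summed levels of 297963 to 313814 in controls and 213844 to 231113 in double knockouts. Some markers of other blood cells moved too. Of 5 B cell markers 1 was tested and was lower, with summed levels of 121 to 146 in controls and 46.8 to 65.3 in double knockouts. Of 7 dendritic cell markers 1 was tested and had no call. No NK cell, erythroid, mast cell or basophil marker reached the level for testing. Of 7 monocyte markers 4 were lower and 3 had no call, Ly6c2 among them (log2 0.18, limma adjusted p = 0.290). Summed levels of the 7 were 8230 to 10222 in controls and 1696 to 1843 in double knockouts. Of 12 neutrophil markers 10 were tested and 10 were lower (summed levels 2055 to 3659 and 496 to 812). Of 6 T cell markers, 3 were tested and 2 were higher, Cd4 and Cd28, with summed levels of 129 to 206 in controls and 1386 to 1566 in double knockouts. Of 4 progenitor markers 2 were tested. Cd34 was lower (log2 -2.24) and made up most of their summed level, which was 1149 to 1243 in controls and 239 to 334 in double knockouts, and Meis1 had no call (log2 0.16). The T cell genes Cd3d, Cd3e and Cd3g were at 0 in all 8 libraries. The part of these marker changes in the results below was not tested.

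Replication genes were lower in the double knockout almost throughout. Of the 50 members, 46 fell and none rose. Of all 11675 genes tested, 23.8% were called lower, 22.9% higher and 46.6% in either direction (limma on log2(value + 1), Benjamini-Hochberg adjusted p under 0.05). The quasi-likelihood test of edgeR and DESeq2 also called 46 lower and 0 higher, and 0 members were higher at an unadjusted p under 0.05. Of the 46, 37 fell at least 2-fold, against 7.20% of all genes tested. The median log2 fold change was -1.51 over the members and 0.01 over all genes tested. The groups did not overlap for 46 members, all of them lower, where 42.9% of all genes tested did not overlap and 21.7% did so with lower double knockouts. The exceptions were Orc3, Orc4 and Orc5, which had no call, and Rfc2, which was called. Timeless did not overlap between groups and still had no call. Together the members took 0.426% to 0.457% of all normalized reads in controls and 0.173% to 0.177% in double knockouts. In bulk RNA, fewer replicating cells and less of these transcripts per cell cannot be told apart.

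**Figure D1:**
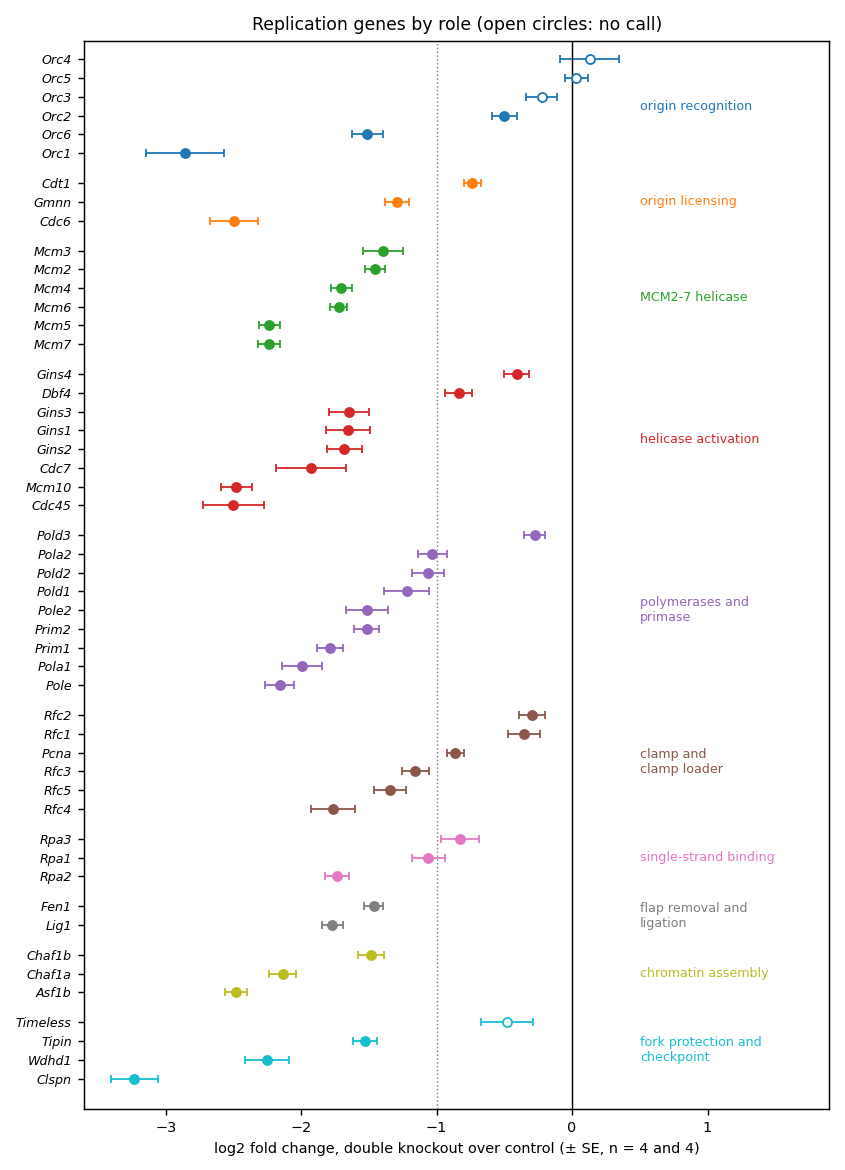
Log2 fold change of each of the 50 replication genes, double knockout over control, with its standard error (4 libraries per group), grouped and coloured by role. Filled circles passed the limma test and open circles did not. All filled circles lie to the left of 0, 37 of them at or beyond the dotted line at -1, and the open circles are Orc3, Orc4, Orc5 and Timeless.

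The fall was alike in the single libraries. The median difference of the 50 members from the control mean was -1.60, -1.46, -1.53 and -1.41 on the log2 scale in double knockouts 1 to 4, and -0.05 to 0.04 in the controls. All 4 double knockouts were therefore far below every control. Replicates of a group differed by little, with a median coefficient of variation over the members of 9.93% in controls and 10.8% in double knockouts. The size of the fall did not follow the control level across the 50 genes, which share the same 8 libraries (Spearman rho -0.02, Pearson r 0.02 with the log2 level).

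**Figure D2:**
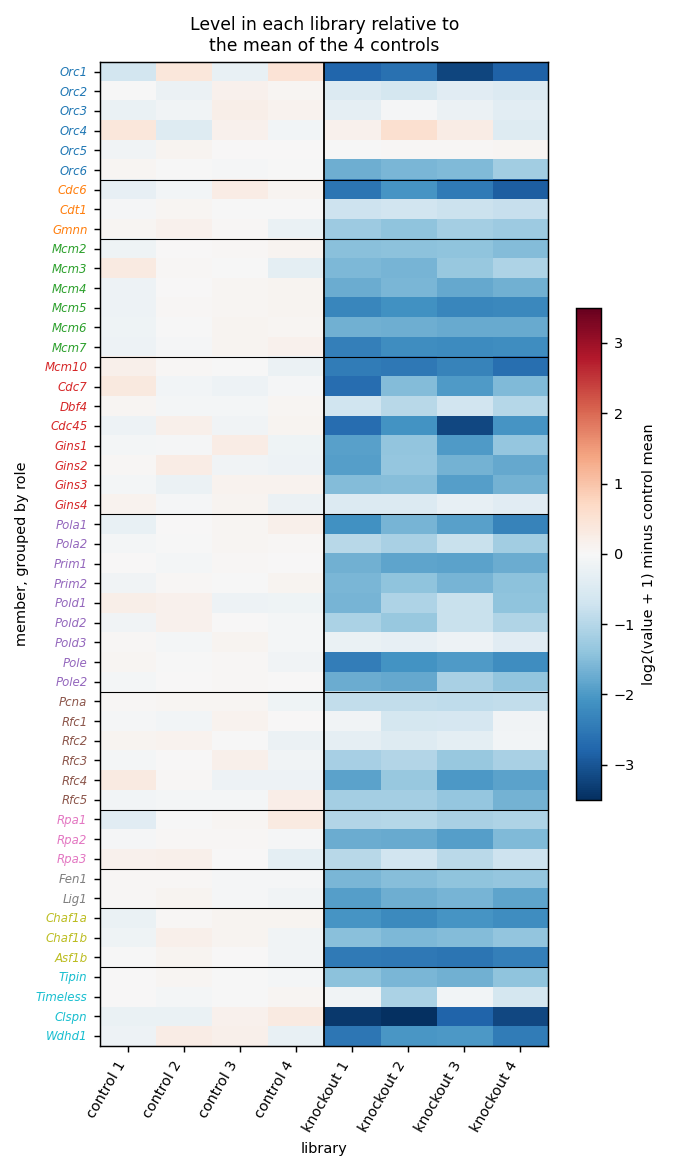
Level of each of the 50 replication genes in each of the 8 libraries, as log2(value + 1) minus the mean of the 4 controls, with rows grouped by role and blue for lower. The 4 double knockout columns are blue for nearly every row. Orc3, Orc4 and Orc5 are pale in all 8 columns, and Timeless is pale in double knockouts 1 and 3 and blue in 2 and 4. Pold3, Rfc2 and Gins4, which were called lower, are nearly as pale (log2 fold changes of -0.28, -0.30 and -0.41). Rfc1, also called lower (-0.36), is pale in double knockouts 1 and 4 and bluer in 2 and 3.

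Of the 6 origin recognition genes, 3 fell and 3 had no call. Orc1, the large ATPase subunit whose level rises and falls with the cell cycle, was the lowest member per kilobase in both groups and fell the most of the complex. Orc1 (ENSMUSG00000028587, chr4:108579423-108614833, mm10) held 88.5, 185, 117 and 196 in the 4 controls and 19.4, 22.1, 14 and 18.5 in the 4 double knockouts, each listed in replicate order as normalized read counts. Every double knockout was below the lowest control, and the fall was 7.26-fold (log2 -2.86, SE 0.29, limma adjusted p = 8.16e-06). Orc6, the small subunit, fell from 626.9 ± 20.3 (SD, n = 4) to 220.6 ± 33.0, and Orc2, a core subunit, fell 1.41-fold from 897.8 ± 94.7 to 633.3 ± 42.1 (limma adjusted p = 0.00113).

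The core subunits Orc3, Orc4 and Orc5 had no call. Orc5 held 447, 523, 498 and 497 in controls and 487, 504, 500 and 516 in double knockouts. The double knockouts lay inside the control range, and the log2 difference was 0.03 (SE 0.09, limma adjusted p = 0.786). Orc4 was the most variable of these, at 678, 377, 574 and 486 in controls and 577, 761, 613 and 380 in double knockouts. Its log2 difference of 0.13 (SE 0.22, adjusted p = 0.659) changed sign without control 2 or double knockout 2 (-0.02 and -0.01). Orc3 held 547, 592, 735 and 701 in controls and 516, 624, 559 and 497 in double knockouts, which overlapped (log2 -0.22, limma adjusted p = 0.132). The ratio of Orc1 to Orc2 within a library, which does not depend on how libraries were scaled, was 0.0994 to 0.240 in controls and 0.0206 to 0.0383 in double knockouts. The difference was -2.36 in log2 ratio, computed like all log2 ratio differences here after adding 1 to each value, and gave an exact two-sided permutation p of 0.0286, the smallest that 4 against 4 libraries allow. Ratios were compared for 10 pairs of genes, and after adjustment over the 10 each p stayed at 0.0286. The pairs were chosen with earlier results of these data known, and the adjustment does not cover that choice.

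The licensing factors all fell, by different factors. Cdc6, the ATPase that loads the helicase together with Cdt1, held 508, 583, 741 and 667 in controls and 104, 148, 110 and 82.8 in double knockouts. The groups were far apart, with a 5.65-fold fall (log2 -2.50, SE 0.18, limma adjusted p = 4.41e-07). Cdt1 held 1803, 1958, 1870 and 1860 in controls and 1128, 1167, 1118 and 1080 in double knockouts. It fell 1.67-fold (log2 -0.74, SE 0.06, limma adjusted p = 1.67e-06), with tight replicates in both groups. Gmnn, which encodes geminin, the inhibitor of Cdt1, fell 2.45-fold from 1822 ± 191 to 741.9 ± 48.0. The ratio of Cdt1 to Gmnn was 0.957 to 1.20 in controls and higher, 1.41 to 1.72, in double knockouts (log2 0.55, exact permutation p = 0.0286, adjusted 0.0286). Cdc6 also fell more than Orc2, with a ratio of 0.571 to 0.757 in controls and 0.130 to 0.256 in double knockouts (log2 -1.998, exact permutation p = 0.0286, adjusted 0.0286).

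All 6 subunits of the MCM2-7 helicase fell at least 2-fold. Their sum was 25918 to 28610 normalized read counts in controls and 7791 to 8377 in double knockouts. Mcm7 (ENSMUSG00000029730, chr5:138164583-138172422, mm10) held 3378, 3725, 4056 and 4217 in controls and 735, 842, 827 and 842 in double knockouts, a 4.72-fold fall (log2 -2.24, SE 0.08, limma adjusted p = 1.88e-09). Double knockout 1 was below the other 3, and all 4 were far below the controls. Mcm5 fell by nearly the same factor (log2 -2.23, SE 0.07), from 4658 ± 389 to 987.6 ± 55.4. Mcm4 and Mcm6 fell by 1.70 and 1.72 on the log2 scale, and Mcm2 fell by 1.46. Mcm3 fell least, at 5287, 4374, 4216 and 3359 in controls and 1432, 1380, 1702 and 2021 in double knockouts (log2 -1.40, SE 0.15, limma adjusted p = 1.93e-05). It varied more within groups than the other 5 subunits, and the groups still stood apart. Mcm5 fell more than Orc2, with a ratio of 4.59 to 6.20 in controls and 1.399 to 1.85 in double knockouts (log2 -1.74, exact permutation p = 0.0286, adjusted 0.0286).

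**Figure D3:**
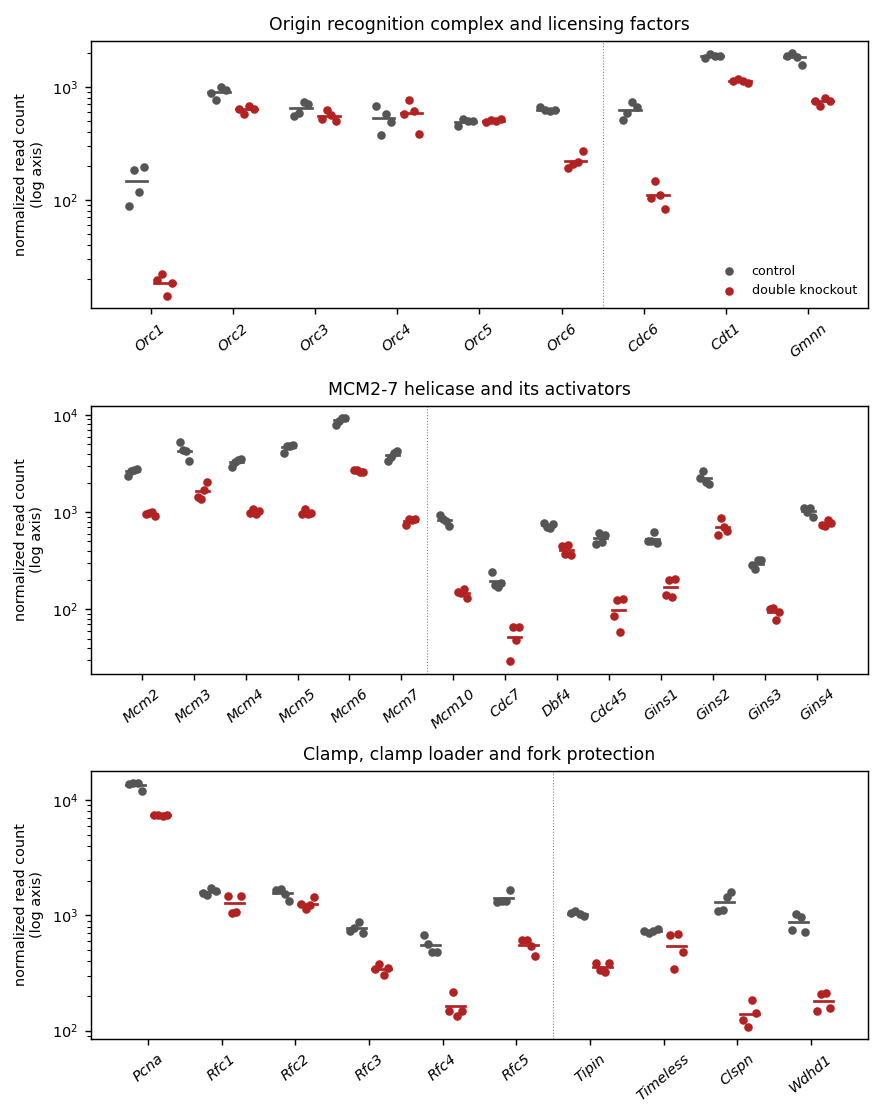
Normalized read count (log axis) of origin recognition and licensing genes, helicase genes with their activators, and clamp, clamp loader and fork protection genes. Each point is 1 library, grey for the 4 controls and red for the 4 double knockouts, and bars mark group means. Orc1 falls to between 14 and 22.1 while Orc3, Orc4 and Orc5 overlap between groups, and Gins4 and Rfc1 lie closer to their controls than Gins1 and Rfc4 do.

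Promoters are shown for the most changed helicase and licensing genes with an entry and for the members with the highest fold changes. Several of the former are textbook E2F targets, and the latter, Orc4 and Orc5, had no call. Both sets were picked by fold change, so the contrast between them is no test of a link between sequence and fall. Sequences are from RefSeq (GRCm38.p6, the mm10 assembly), run 5′ to 3′ on the gene's strand and hold 250 bases before to 50 after a start site. Of the members, 41 had an entry. Capitals mark the letters TTTCCCGC, TTTCGCGC, TTTGCCGC or TTTGGCGC, which fit the E2F consensus, on either strand. Where a gene had several start sites the first entry is printed.
Cdc6, chr11:98907901-98908200, plus strand: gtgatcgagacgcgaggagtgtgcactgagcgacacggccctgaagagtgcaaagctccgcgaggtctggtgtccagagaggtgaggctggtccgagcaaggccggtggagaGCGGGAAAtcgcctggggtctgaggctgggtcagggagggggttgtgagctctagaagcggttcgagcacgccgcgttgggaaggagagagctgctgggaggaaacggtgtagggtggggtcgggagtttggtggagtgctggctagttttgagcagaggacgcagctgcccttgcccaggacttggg
Mcm7, chr5:138171834-138172133, minus strand: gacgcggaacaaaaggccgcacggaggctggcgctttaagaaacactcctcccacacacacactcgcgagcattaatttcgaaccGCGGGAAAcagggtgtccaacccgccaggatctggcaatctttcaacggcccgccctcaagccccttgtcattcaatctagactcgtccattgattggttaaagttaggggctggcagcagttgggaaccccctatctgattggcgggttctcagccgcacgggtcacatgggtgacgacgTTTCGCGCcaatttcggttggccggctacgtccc
Mcm5, chr8:75109259-75109558, plus strand: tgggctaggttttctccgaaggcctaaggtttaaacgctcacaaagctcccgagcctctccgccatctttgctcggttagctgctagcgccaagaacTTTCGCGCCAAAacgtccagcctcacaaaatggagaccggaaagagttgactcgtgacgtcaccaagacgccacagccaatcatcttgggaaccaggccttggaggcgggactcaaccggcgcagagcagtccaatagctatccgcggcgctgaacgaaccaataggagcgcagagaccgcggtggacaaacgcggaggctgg
Mcm6, chr1:128359656-128359955, minus strand: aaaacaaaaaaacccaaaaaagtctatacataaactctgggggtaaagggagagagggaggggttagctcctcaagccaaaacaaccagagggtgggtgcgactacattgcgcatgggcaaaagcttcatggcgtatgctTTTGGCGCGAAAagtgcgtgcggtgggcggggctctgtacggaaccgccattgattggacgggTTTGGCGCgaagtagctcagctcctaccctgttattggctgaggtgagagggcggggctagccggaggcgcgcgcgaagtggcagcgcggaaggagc
Orc4, chr2:48950032-48950331, minus strand: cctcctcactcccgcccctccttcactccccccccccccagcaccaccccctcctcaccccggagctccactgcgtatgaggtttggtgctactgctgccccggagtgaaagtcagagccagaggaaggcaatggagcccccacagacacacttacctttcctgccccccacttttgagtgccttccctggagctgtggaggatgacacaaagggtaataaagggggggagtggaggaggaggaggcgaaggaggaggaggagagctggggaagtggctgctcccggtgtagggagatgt
Orc5, chr5:22550289-22550588, minus strand: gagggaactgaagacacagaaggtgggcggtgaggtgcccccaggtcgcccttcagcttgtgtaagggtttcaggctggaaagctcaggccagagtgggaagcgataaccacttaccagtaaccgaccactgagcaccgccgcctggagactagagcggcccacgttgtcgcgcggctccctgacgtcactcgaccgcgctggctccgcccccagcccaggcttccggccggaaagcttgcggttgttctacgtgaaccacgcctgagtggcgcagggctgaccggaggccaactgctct

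Counted from the 5′ end of each window, the E2F letters were at bases 113 to 120 in Cdc6, at 86 to 93 and 267 to 274 in Mcm7, at 98 to 109 in Mcm5 and at 141 to 152 and 204 to 211 in Mcm6. In Mcm5 and in the first run of Mcm6, a word on each strand overlapped to give a run of 12 bases. Neither the Orc4 nor the Orc5 window held these letters. Over all members with an entry, 16 of 41 genes (39.0%) had them in at least 1 window, against 2.61% of 27025 genes with an entry and 4.80% of the 9183 that were tested here. The MCM2-7 genes with an entry had them in 4 of 5 cases (Mcm3, Mcm5, Mcm6 and Mcm7), and both licensing genes with an entry (Cdc6 and Cdt1) had them. By call, 15 of 37 members called lower (40.5%) and 1 of 4 with no call (25%) had them, which was not tested. Orc3 was the 1 with no call, and Asf1b, Cdc45 and Mcm10, which fell over 5-fold, did not have them. The letters CCAAT, on either strand, were in 24 of 41 member genes (58.5%) against 43.2% of the tested genes and 41.1% of all genes with an entry. In the Mcm7 window, 1 of the 3 CCAAT matches overlapped the E2F letters by a base. TTTGAA or TTCGAA, the letters of the cell cycle homology region, were in 10 of 41 (24.4%). The share was 16.9% among the tested genes and 21.7%, near that of the members, among all genes with an entry. Of these 10 genes, 4 belong to helicase activation: Cdc7, Cdc45, Dbf4 and Gins3. A match describes letters in this window and no more.

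Genes that turn the loaded helicase on fell in all 8 cases, 6 of them at least 2-fold. Cdc45, which joins MCM2-7 in the active helicase, held 476, 614, 496 and 577 in controls and 84.5, 125, 58.0 and 129 in double knockouts. The fall was 5.66-fold and the groups stood far apart (log2 -2.50, SE 0.23, limma adjusted p = 3.60e-06). Mcm10, needed when the helicase starts to unwind, fell 5.57-fold from 828.0 ± 92.0 to 147.5 ± 13.4. The kinase gene Cdc7 fell 3.80-fold from 193.6 ± 32.8 to 52.2 ± 17.5, whereas Dbf4, its activating subunit, fell 1.79-fold from 730.0 ± 39.5 to 409.5 ± 48.0. Within the GINS complex, Gins1, Gins2 and Gins3 fell by 1.66, 1.68 and 1.65 on the log2 scale. Gins4 fell only 1.33-fold (log2 -0.41, SE 0.09, limma adjusted p = 0.00310), at 1112, 993, 1093 and 882 in controls and 734, 725, 831 and 772 in double knockouts. The highest double knockout value of Gins4 was just under the lowest control.

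All 9 polymerase and primase genes fell, and 8 fell at least 2-fold. Pole, the catalytic subunit of the leading-strand polymerase epsilon, held 1161, 1093, 1124 and 1014 in controls and 206, 255, 279 and 245 in double knockouts, a 4.47-fold fall (log2 -2.16, SE 0.11, limma adjusted p = 1.72e-08). Its second subunit gene Pole2 fell 2.85-fold, at 308, 326, 328 and 326 in controls and 96.1, 92.5, 146 and 122 in double knockouts. The ratio of Pole2 to Pole was 0.265 to 0.321 in controls and higher, 0.362 to 0.523, in double knockouts (log2 0.65, exact permutation p = 0.0286, adjusted 0.0286). Pola1, the catalytic subunit of polymerase alpha, fell 3.99-fold from 1105 ± 133 to 279.4 ± 60.01, and the primase genes Prim1 and Prim2 fell 3.45- and 2.86-fold. Pola2, the accessory subunit, fell 2.04-fold.

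In polymerase delta, which copies the lagging strand, the subunits fell unequally. Pold1, the catalytic subunit, fell 2.33-fold and Pold2 fell 2.09-fold. Pold3, an accessory subunit that binds Pcna, held 1338, 1219, 1375 and 1230 in controls and 1103, 1046, 1131 and 979 in double knockouts. Its fall of 1.21-fold was small, yet the groups did not overlap (log2 -0.28, SE 0.08, limma adjusted p = 0.00993). Pola1 fell more than Pold2, with a ratio of 1.27 to 1.67 in controls and 0.574 to 1.15 in double knockouts (log2 -0.93, exact permutation p = 0.0286, adjusted 0.0286).

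Of the clamp and its loader, all 6 genes fell and 3 fell at least 2-fold. Pcna, the sliding clamp, was the member with the highest level per kilobase of its principal transcript in both groups (8848 and 4862). It held 13673, 13995, 14005 and 12050 in controls and 7384, 7447, 7247 and 7446 in double knockouts, a fall of 1.82-fold with very close double knockouts (log2 -0.86, SE 0.06, limma adjusted p = 4.13e-07). Rfc4, a small subunit of the clamp loader, held 675, 562, 485 and 478 in controls and 149, 216, 135 and 149 in double knockouts. It fell 3.40-fold (log2 -1.77, SE 0.16, limma adjusted p = 4.15e-06). Rfc3 and Rfc5, also small subunits, fell 2.23- and 2.54-fold. Rfc5 held 1301, 1335, 1333 and 1659 in controls and 617, 610, 546 and 443 in double knockouts, with control 4 above the other controls and the groups far apart.

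Rfc1, the large subunit, and Rfc2 fell little. Rfc1 held 1560, 1501, 1743 and 1632 in controls and 1485, 1058, 1076 and 1467 in double knockouts, with double knockouts 1 and 4 close under the controls (log2 -0.36, SE 0.12, limma adjusted p = 0.0269). Rfc2 held 1649, 1701, 1530 and 1346 in controls and 1249, 1127, 1234 and 1457 in double knockouts, so that double knockout 4 lay inside the control range (log2 -0.30, SE 0.10, limma adjusted p = 0.0243). Both calls were near the threshold. Leaving out 1 library each, the log2 fold change stayed between -0.44 and -0.27 for Rfc1 and between -0.37 and -0.24 for Rfc2. The call of Rfc1 was lost without control 3 or 4 or double knockout 2 or 3 (adjusted p = 0.0769, 0.0546, 0.0781 and 0.0802), and the call of Rfc2 without control 1 or 2 or double knockout 1, 2 or 3 (adjusted p = 0.0567, 0.0709, 0.0516, 0.0722 and 0.0558). The ratio of Rfc4 to Rfc1 was 0.278 to 0.433 in controls and 0.100 to 0.204 in double knockouts (log2 -1.41, exact permutation p = 0.0286, adjusted 0.0286).

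The 3 subunits of replication protein A, which coats single-stranded DNA, fell. Rpa2 held 1622, 1726, 1707 and 1603 in controls and 501, 491, 440 and 571 in double knockouts, a 3.33-fold fall (log2 -1.74, SE 0.09, limma adjusted p = 2.09e-08). Rpa3, the smallest subunit, held 434, 441, 394 and 308 in controls and 200, 247, 201.1 and 234 in double knockouts, a 1.77-fold fall (log2 -0.83, SE 0.14, limma adjusted p = 0.000463). Control 4 of Rpa3 was closest to the double knockouts, and none overlapped. Rpa1, the large subunit, fell 2.09-fold from 3498 ± 693 to 1651 ± 61.7. Rpa2 fell more than Rpa1, with a ratio of 0.371 to 0.614 in controls and 0.279 to 0.352 in double knockouts (log2 -0.68, exact permutation p = 0.0286, adjusted 0.0286).

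Genes that finish the lagging strand and pack the new DNA fell as well. Lig1, the ligase that joins Okazaki fragments, held 3830, 3956, 3614 and 3414 in controls and 980, 1123, 1207 and 1037 in double knockouts (log2 -1.77, SE 0.08, limma adjusted p = 8.07e-09). Fen1, the flap endonuclease, held 2622, 2602, 2496 and 2474 in controls and 838, 909, 959 and 996 in double knockouts (log2 -1.46, SE 0.07, limma adjusted p = 1.44e-08). Both stood in tight, separate groups. Asf1b, a histone chaperone that hands histones to the assembly factor, held 1411, 1527, 1428 and 1311 in controls and 253, 250, 240 and 270 in double knockouts, a 5.58-fold fall (log2 -2.48, SE 0.08, limma adjusted p = 9.90e-10). Its paralogue Asf1a, which is not among the 50, fell by 0.75 on the log2 scale. The large subunit gene of chromatin assembly factor, Chaf1a, fell 4.40-fold. Chaf1b held 803, 1007, 960 and 830 in controls and 323, 302, 312 and 342 in double knockouts (log2 -1.49, SE 0.10, limma adjusted p = 2.30e-07). The third subunit of that factor, Rbbp4, is shared with other chromatin complexes and fell only by 0.35. The ratio of Chaf1b to Rbbp4 was 0.152 to 0.199 in controls and 0.0712 to 0.0890 in double knockouts (log2 -1.13, exact permutation p = 0.0286, adjusted 0.0286).

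The fork protection genes held the member with the largest fall and a member with no call. Clspn, which encodes claspin, the mediator of the replication checkpoint (ENSMUSG00000042489, chromosome 4), held 1100, 1103, 1447 and 1604 in controls and 124, 109, 183 and 142 in double knockouts. The fall was 9.40-fold and the groups were far apart (log2 -3.23, SE 0.17, limma adjusted p = 3.72e-08). Wdhd1, which ties polymerase alpha to the helicase, fell 4.76-fold from 868.4 ± 159 to 181.6 ± 34.1, and Tipin fell 2.89-fold from 1038 ± 47.5 to 359.5 ± 32.4. Timeless, the partner of Tipin, held 735, 699, 732 and 770 in controls and 677, 341, 692 and 479 in double knockouts. Its double knockouts 1 and 3 were just under the controls and 2 and 4 well below, so the test was not passed (log2 -0.48, SE 0.19, limma adjusted p = 0.0605). It was passed without double knockout 1 or 3, the higher ones (adjusted p = 0.0280 and 0.0245), and with the pairs averaged (0.00817). For Timeless each averaged pair joins a higher and a lower library, which hides the spread between them. These passes therefore add no support for a fall. Clspn fell more than Tipin, with a ratio of 1.01 to 1.63 in controls and 0.320 to 0.563 in double knockouts (log2 -1.70, exact permutation p = 0.0286, adjusted 0.0286).

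**Figure D4:**
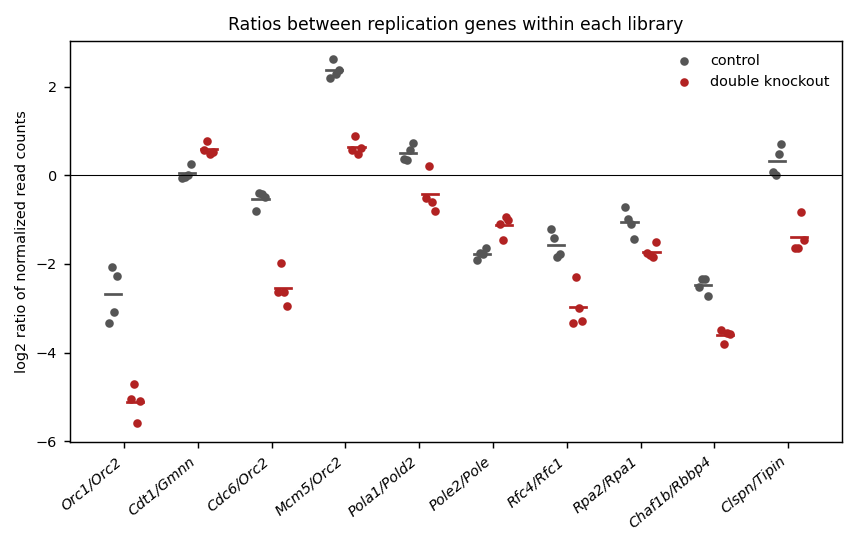
Log2 ratio of normalized read counts (nothing added) between 2 genes within each library for the 10 pairs compared, with grey points for the 4 controls, red points for the 4 double knockouts and bars for group means. The groups do not overlap for any of the 10 pairs, and the ratio is higher in the double knockouts only for Cdt1 to Gmnn and Pole2 to Pole.

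Other genes of the pathway were listed by role, with earlier results of these data known. Of 36 other replication genes, 25 fell, 1 rose and 10 had no call, with a median log2 fold change of -0.75. Pclaf, a Pcna-binding factor, fell 9.89-fold from 3588 ± 145 to 362.8 ± 36.4 (limma adjusted p = 1.89e-10). Dtl, which directs the ubiquitin ligase that removes Cdt1, fell 6.39-fold, and Atad5, which unloads Pcna, fell 4.78-fold. Cul4a, the scaffold of the same ligase, rose 1.27-fold from 1385 ± 150 to 1761 ± 258 (limma adjusted p = 0.0239). The small polymerase subunits Pold4, Pole3 and Pole4 had no call (log2 0.22, -0.19 and 0.13).

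Of 12 nucleotide supply genes, 8 fell and none rose, with 0 higher also at an unadjusted p under 0.05 and with edgeR and DESeq2. Rrm2, a ribonucleotide reductase subunit, fell 14.2-fold, and Tk1, thymidine kinase, fell 7.49-fold. Of 26 cyclin, kinase, E2F and RB family genes, 20 fell and 1 rose (median -0.88). Ccnd1, cyclin D1, fell 4.01-fold, Cdkn2c, an inhibitor of Cdk4 and Cdk6, fell 7.21-fold and E2f8, a repressor E2F, fell 7.85-fold. E2f4, an E2F that mostly represses with RB family proteins, rose 1.36-fold from 1014 ± 92.1 to 1375 ± 96.8 (limma adjusted p = 0.00114). All 15 mitosis genes fell, with a median of -2.95 beside the -1.51 of the replication genes. Among them Mki67 fell 10.8-fold, Top2a fell 8.40-fold and Ccnb1 fell 8.004-fold. These lists were not compared with each other by a test.

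**Figure D5:**
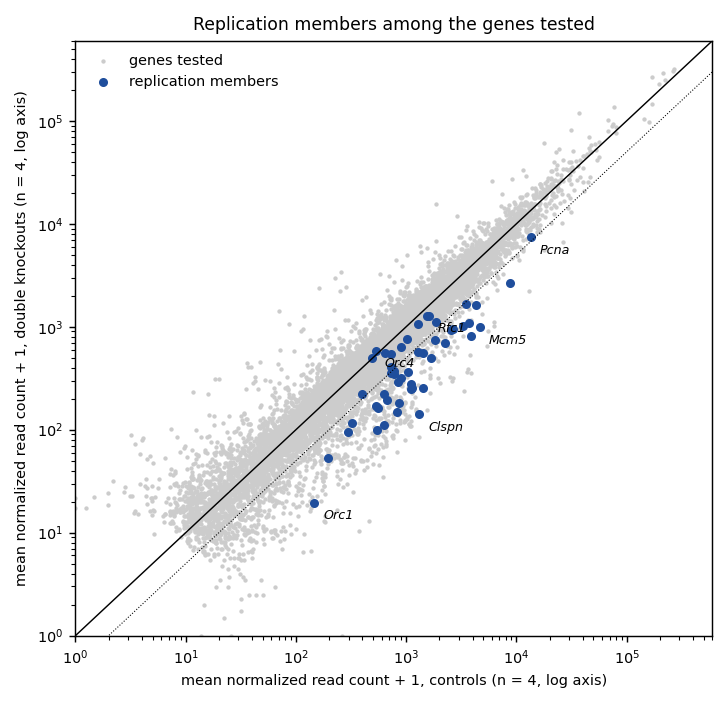
Mean normalized read count + 1 of each of the 11675 genes tested in the 4 double knockouts against the 4 controls (both axes log), with the 50 replication genes in blue, the solid line at equal levels and the dotted line at a 2-fold lower level. The blue points lie on or below the solid line except for Orc4 and Orc5, and most lie below the dotted line.

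Reads of some members could belong in part to a neighbour. Exons of 19 members share bases with another annotated gene, 16 of them on the opposite strand, and no source used here says whether strand was used in quantification. The longest shared stretch was 4648 bases between Chaf1a and Ubxn6, which rose (log2 0.61) where Chaf1a fell. Rfc5 shares 499 bases with Wsb2, which also rose (log2 0.79). Gins2 shares 2758 bases with Gse1 (log2 -0.41, limma adjusted p = 0.0600) and Orc2 shares 1150 with Nif3l1 (log2 0.05). Rfc2, which fell little, shares 952 with Lat2, which had a mean of 3666 in controls and no call (log2 -0.06). Orc4 shares 446 with Acvr2a and 136 with Mbd5, neither of them called (log2 -0.37 and 0.43). On the same strand, Pole2 shares 245 with Gm49384, which had a mean of 66.5 in controls and 36.9 in double knockouts. Gm49384 was also called lower (log2 -0.83, limma adjusted p = 0.0126). The pseudogene Pcna-ps2 held 3.93 to 14.5 in controls and 0.971 to 5.03 in double knockouts, far under Pcna.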

How the data were processed

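The authors deposited a normalized signal for each gene and library. Salmon 1.4.0, DESeq2 and mm10 are named, with no roles, in the submitters' processing notes. The libraries were made with a Kapa mRNA HyperPrep kit, per the labels' protocols. No source used here gives the annotation release, filters or strand setting. Multiplying the values of a library by its size factor (0.901 to 1.04) gave whole reads for 100% of them, within 0.01. These reads served for depth and for count tests as alternatives, in which edgeR 4.0.16 called 2593 genes higher and 2786 lower.

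The test was limma 3.58.1 (R 4.3.3; genotype only, moderated variances with an abundance trend, robust, two-sided) on log2(value + 1), a scale that understates changes of low genes. It took in the 11675 genes that reached 10 in 4 or more libraries, all 50 members among them, with Benjamini-Hochberg adjustment over all of these and a threshold of 0.05. For ratios, an exact permutation test (two-sided) went through all 70 regroupings. The limma step was checked on simulated data with the same spread setting for every gene. Far fewer genes were changed there than were called here, and no libraries formed close pairs. That checks the working of the step, not its behaviour on these data. The members, lists, gene pairs and motifs were chosen with earlier results of these data known. All 50 members are named. Values in every library are given for the lowest and highest fold change of each of the 10 roles, for members with no call and for those with a library far from its group. From other lists the 3 smallest adjusted p-values and genes called higher were named, except for items not reported here. Asf1a, Pold4, Pole3 and Pole4 were added as partners of members after their values were seen. Levels per kilobase use the APPRIS principal transcript of GENCODE M21.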

Additional observations from a re-analysis of the deposited data

Results flagged for a closer look

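In 4 groups a single library stood apart from the other 3, with a gap to the nearest above Dixon's limit for the share of the group's range. With 104 groups examined (the 50 members, Cdk8 and Cdk19, in controls and double knockouts), chance flags about 1 group in 20. Mcm7 stood at 735 in double knockout 1 against 827 to 842 in the other double knockouts. Pole2 stood at 308 in control 1 against 326 to 328, Pcna at 12050 in control 4 against 13673 to 14005, and Rfc5 at 1659 in control 4 against 1301 to 1335. All 4 genes were called lower without that library as well. No cause was tested.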

How the results depend on the processing

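Over the 19 alternative settings, 44 to 46 members were called lower and 0 higher, and 35 to 37 were lower by at least 2-fold. For 45 of the 50 members, direction and call were the same in every setting. The median of the members was -1.44 under quantile normalization, which raised the median of all genes tested to 0.05. Leaving out 1 library each moved it between -1.55 and -1.47. The calls on Rfc1 and Rfc2 were lost in 5 and 8 settings, among them the fit without trend and robust options (adjusted p = 0.0640 and 0.0533), which leaves the fold changes as they were at -0.36 and -0.30. That on Timeless was gained in 3. Leaving out 1 library each, Orc4 lay between -0.0214 and 0.321 and Orc5 between -0.0122 and 0.0630. They turned negative without control 1 (Orc5, -0.0122), control 2 (Orc4, -0.0214) and double knockout 2 (Orc4, -0.0126). Replicate numbers did not pair the libraries: deviations of same-numbered libraries correlated at -0.05, 0.03, -0.04 and -0.04. With a replicate block 45 members were called lower, without Rfc2. All 110 alternative values of the 10 ratios stayed within 1 SD of the reported ones. Only those with a different number added before the log could have moved further. Averaging pairs leaves the group means of the log2 ratios unchanged, and leaving out 1 of 4 libraries cannot shift them by 1 SD. The cause of the changes in call and sign was not tested. Counting error was not computed. It weighs most on low counts, and the lowest double knockout means were those of Orc1 and Cdc7, whose libraries held 14 to 66.3 normalized read counts. Cdc45 was also at 58.0 in double knockout 3.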

Other observations

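The order of the members by level changed between the groups. Levels are given per kilobase of the principal transcript, so that genes of different length can be compared, and no test was made of the order. Pcna, Mcm6 and Gmnn led in this order in both groups, at 8848, 3025 and 1616 in controls and 4862, 914 and 658 in double knockouts. Gins4 moved from rank 14 of the 50 to rank 4 (756 and 567), and Pold3 from 28 to 8 (421 and 347). Asf1b moved from rank 12 to 35 (794 and 142) and Mcm7 from 6 to 16 (1298 and 274). Orc3 and Orc5 moved from ranks 34 and 39 to 20 and 21.

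Subunits that work as a fixed assembly were unequal in this rough level per kilobase already in controls. The MCM2-7 genes lay between 783 (Mcm2) and 3025 (Mcm6) per kilobase in controls and between 274 (Mcm7) and 914 (Mcm6) in double knockouts. The GINS genes lay between 117 (Gins3) and 756 (Gins4) in controls and between 37.3 and 567 in double knockouts. Among origin recognition genes, Orc1 stood at 48.6 and 6.14, while Orc6 stood highest in controls at 487 and Orc3 highest in double knockouts at 239.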
